A study of Gallus gallus with 16 samples.

Results

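Pigment cells make melanin in melanosomes, and the genes described here serve that task or the growth of the cells that carry it out. The members were chosen by symbol: TYRP1, IGSF11, TYR, DCT, MITF, KIT and KITLG, which are 7 of the 18151 gene rows. TYRP1 and IGSF11 were picked because their counts were far higher after FOXL2 knockdown in these same libraries, so their values are given as a description with no test. The other 5 genes were added for what they do, and were tested. They too were chosen with earlier results of these same data known, so their p-values are not independent of that choice.

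FOXL2 is a forkhead transcription factor of the granulosa cell, the somatic cell that surrounds the oocyte in the follicle. Primary granulosa cells of White Leghorn hens aged 25 to 30 weeks came from pre-ovulatory follicles (poGC) or from pre-hierarchical small yellow follicles of 6 to 8 mm (phGC). After 16 h in culture medium with 5% serum they were transfected with FOXL2-siRNA (KD) or with NC-siRNA (CT), and RNA was collected 48 h later. Each cell type thus had a KD and a CT group (written poGC-KD, phGC-CT and so on), and each of the 4 groups had 4 libraries. All groups went through transfection, KD rests on 1 siRNA duplex, and which hen gave which library is not stated in the labels. The p-values therefore measure the spread between these libraries, which may be in part technical.

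The knockdown rests on the following duplexes, shown because every KD and CT library received one of them. The 19 paired bases are in capitals and the overhang of 2 bases in lower case, 5′ to 3′, and in each duplex the paired bases of both strands were complementary.
FOXL2-siRNA strand 1: GCCUCAACGAGUGCUUCAUtt
FOXL2-siRNA strand 2: AUGAAGCACUCGUUGAGGCtt
NC-siRNA strand 1: UUCUCCGAACGUGUCACGUtt
NC-siRNA strand 2: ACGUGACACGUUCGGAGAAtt

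TYRP1 and IGSF11 were also among the genes that the study measured by qRT-PCR. The primers are shown because they name the transcripts followed under these symbols, 5′ to 3′ in lower case, and the qRT-PCR values were not used here.
TYRP1 forward: gggcaaacacatttatcacca
TYRP1 reverse: ttgtattcccggttatgtcca
IGSF11 forward: ccctcccagcctagcctca
IGSF11 reverse: ctgccccacactggtcgtt

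As background, tyrosinase (TYR) starts melanin synthesis from tyrosine, and DCT and TYRP1 act on later intermediates of the eumelanin branch. MITF is the basic helix-loop-helix factor that drives these enzymes in melanocytes. KIT is a receptor tyrosine kinase needed by melanoblasts, germ cells and blood cells, and KITLG, its ligand, is made in the ovary by granulosa cells and acts on KIT of the oocyte and theca. IGSF11 is an immunoglobulin-superfamily adhesion protein, known in zebrafish for the migration of pigment cells.

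FOXL2 itself was read first, since it checks the labels. Levels are given as CPM, the reads counted for a gene relative to the library size after TMM scaling, a correction for differences in composition between libraries. FOXL2 lay between 394.2 and 503.2 CPM in the poGC-KD libraries and between 688.1 and 776.6 in poGC-CT, without overlap. In phGC it lay between 361.2 and 507.7 CPM in KD and between 471.4 and 680.8 in CT, with overlap. Its log2 fold change was -0.68 (SE 0.0792, adjusted p = 0.000353, edgeR) in poGC and -0.43 (SE 0.14, adjusted p = 0.0878, edgeR) in phGC. The fall in phGC was called by DESeq2 (adjusted p = 0.0242), in one fit of all 16 libraries (0.0237, edgeR), and without phGC-KD 2 (0.0492, edgeR) or phGC-CT 1 (0.0489, edgeR). These were 4 of 16 alternatives. Under the other 12 the fall in phGC stayed without a call (adjusted p up to 0.195, edgeR with a library left out). The change of FOXL2 in poGC minus that in phGC was -0.27 (SE 0.169, adjusted p = 0.396, edgeR). Whether the depth of knockdown bears on other differences in change between the cell types was not tested. The paper reported significantly lower FOXL2 in both cell types by qRT-PCR, on RNA samples also used for RNA-Seq, and lower protein by Western blot. For phGC, edgeR thus gave no call on the counts where the qRT-PCR of the paper was significant. The libraries held between 29979116 and 56121795 counts, and granulosa markers summed to between 16679 and 42719 CPM in every library, far above those of melanocytes, which reached at most 17.4 CPM.

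TYRP1 had few reads in control cells and more in every knockdown library. The poGC-CT libraries 1 to 4 had 4, 17, 22 and 7 TYRP1 reads, and the poGC-KD libraries had 320, 270, 384 and 270. The phGC-CT libraries had 8, 10, 14 and 7 reads, and the phGC-KD libraries 79, 33, 48 and 59. The lowest KD library stood above the highest CT library in both cell types, as for 31.6% of all genes in poGC in either direction (15.5% with KD higher, 16.1% lower) and 18.4% in phGC (9.39% and 9.01%), and the KD libraries of poGC all stood above those of phGC. The level was 6.24 ± 0.489 CPM (SD, n = 4) in poGC-KD against 0.263 ± 0.159 in poGC-CT, and 1.48 ± 0.309 in phGC-KD against 0.305 ± 0.101 in phGC-CT. The fitted log2 fold change was 4.55 (SE 0.385) in poGC and 2.26 (SE 0.303) in phGC, that is 23.5-fold and 4.79-fold.

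IGSF11 followed the same course at similar read numbers. It had 4, 10, 20 and 18 reads in poGC-CT libraries 1 to 4 and 334, 230, 370 and 252 in poGC-KD. In phGC-CT it had 18, 4, 12 and 9 reads, and in phGC-KD 83, 47, 49 and 43. Again no KD library overlapped with a CT library of its cell type. The level went from 0.271 ± 0.129 to 5.94 ± 0.884 CPM (SD, n = 4 each) in poGC and from 0.339 ± 0.191 to 1.5 ± 0.233 CPM in phGC. The log2 fold change was 4.44 (SE 0.335) in poGC and 2.14 (SE 0.4) in phGC. In this pair the change was larger in poGC than in phGC by 2.27 on the log2 scale (SE 0.49) for TYRP1 and by 2.28 (SE 0.529) for IGSF11.

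**Figure D1:**
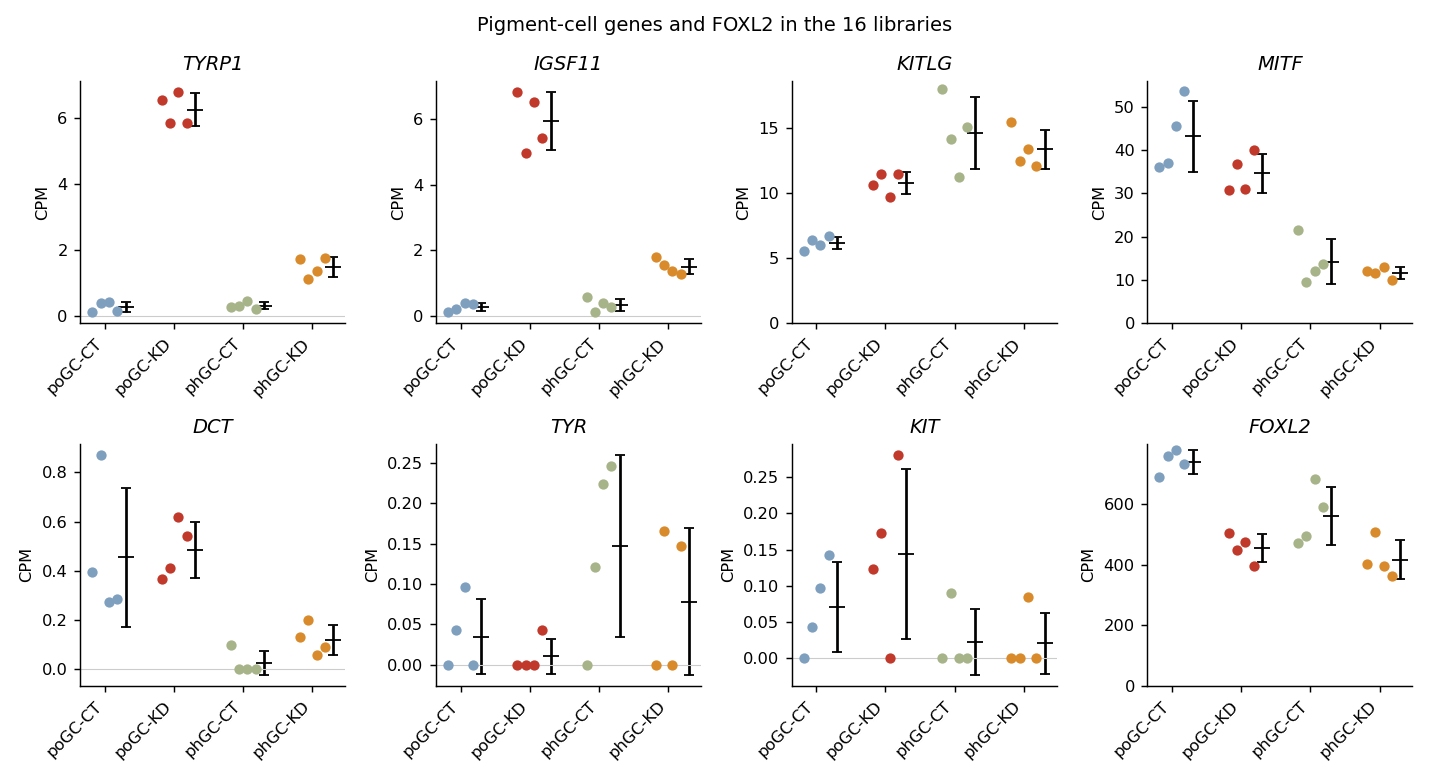
Level of each member and of FOXL2 (vertical axis, CPM, each panel with its own scale) in the 16 libraries, by group; points are libraries and the black mark and bar are the mean and SD of 4. TYRP1 and IGSF11 stand at 6.24 and 5.94 CPM in poGC-KD and below 0.6 CPM in every CT library, while KITLG is raised in poGC-KD over poGC-CT only and MITF is set apart by cell type.

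The read numbers of the pair kept close to each other. Over a group, TYRP1 and IGSF11 had 1244 and 1186 reads in poGC-KD, 219 and 222 in phGC-KD, 50 and 52 in poGC-CT, and 39 and 43 in phGC-CT. The ratio of TYRP1 to IGSF11 reads in single libraries ran from 0.958 to 1.17 in poGC-KD and from 0.702 to 1.37 in phGC-KD. With few reads in the controls it ran wider, from 0.389 to 1.7 in poGC-CT and from 0.444 to 2.5 in phGC-CT. Per transcript length the genes differed: the deposited FPKM was 2.68 ± 0.226 for TYRP1 and 1.32 ± 0.21 for IGSF11 in poGC-KD. Both stayed below KITLG, at 6.21 ± 0.491 FPKM, and MITF, at 4.99 ± 0.997 FPKM, in the same libraries.

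**Figure D2:**
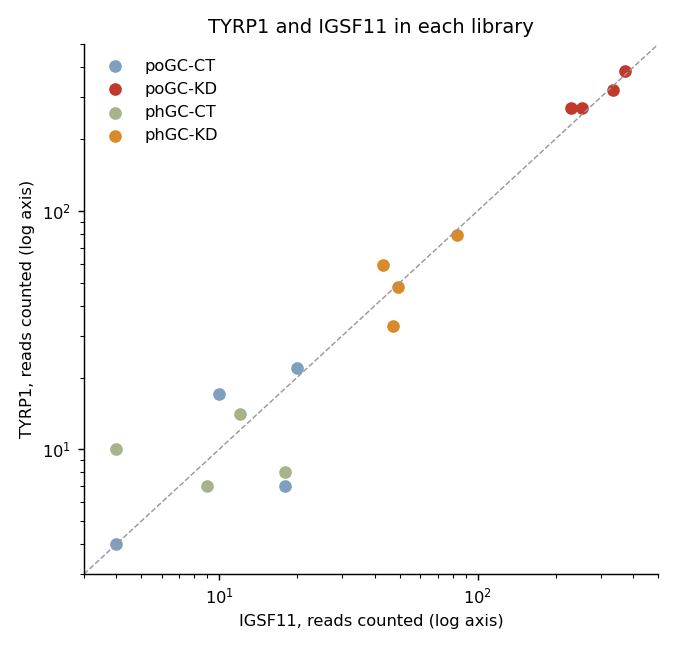
Reads counted for TYRP1 against reads counted for IGSF11 in each of the 16 libraries, both on log axes, coloured by group; the dashed line marks equal counts. The poGC-KD libraries lie at 230 to 384 reads of either gene, those of phGC-KD at 33 to 83 and all CT libraries at 4 to 22.

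In pattern over all 16 libraries, TYRP1 had IGSF11 at rank 5 among 13496 genes tested in both comparisons (Pearson r = 0.955 of log2 CPM, a description over libraries that share groups). CITED4 (r = 0.966), LOC421419 (0.962), C2ORF88 (0.960) and CMBL (0.956) stood before it. For IGSF11 the nearest were MAGI3 (0.958), C2ORF88 (0.958) and then TYRP1. Both TYRP1 and IGSF11 were picked for their rise in these same libraries. A high correlation between them was thus given in part by the choice. CMBL, a carboxymethylenebutenolidase, had the steepest change of those named that are not members, with log2 fold changes of 3.83 (SE 0.219) in poGC and 2.05 (SE 0.45) in phGC. CITED4 changed by 0.70 (SE 0.0555) and 0.41 (SE 0.0696), so a high correlation here does not mean a change of like size. MITF and KITLG, which were not picked for a rise, were far down the order for TYRP1, at ranks 6250 and 3630.

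The other melanin enzymes, TYR and DCT, were low in all groups, and with all libraries no change of them after knockdown passed a test. TYR had 0, 0, 0 and 2 reads in the poGC-KD libraries and 0, 2, 5 and 0 in poGC-CT. In phGC it had 0, 5, 0 and 5 reads in KD and 0, 4, 7 and 8 in CT. TYR was too low for the model across all genes, and its KD and CT libraries overlapped in both cell types (two-sided exact permutation of CPM, p = 0.429 in poGC and p = 0.4 in phGC, n = 4 per group, smallest possible p = 0.0286). No rise like that of TYRP1 was seen in the reads of TYR in either cell type. A smaller change or a fall of TYR was not detectable at this depth.

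DCT had 18, 19, 35 and 25 reads in poGC-KD and 14, 40, 14 and 14 in poGC-CT. These libraries overlapped, and the log2 fold change was 0.11 (SE 0.413, adjusted p = 0.874, edgeR). In phGC it had 6, 6, 2 and 3 reads in KD, and 3 reads in 1 CT library with 0 in the other three. The difference in CPM did not pass the exact permutation test (p = 0.0857, or 0.343 adjusted over the 8 tests of members that were too low for the model). With so few reads in phGC, the change of DCT was not compared between the cell types.

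MITF, in contrast, had at least 318 reads in every library, and its change passed the test in neither cell type. It had 1500, 1708, 1764 and 1853 reads in poGC-KD and 1283, 1703, 2359 and 2648 in poGC-CT, which is 34.7 ± 4.54 against 43.1 ± 8.26 CPM (SD, n = 4). The libraries overlapped, and the log2 fold change of -0.30 (SE 0.139) had an adjusted p of 0.15 (edgeR). In phGC it had 551, 346, 465 and 336 reads in KD and 674, 318, 381 and 443 in CT, with a log2 fold change of -0.30 (SE 0.226, adjusted p = 0.443, edgeR). The phGC-CT library 1 stood highest in phGC, at 21.5 CPM against at most 13.6 in the other CT libraries. The change of MITF did not differ between the cell types past the threshold (difference -0.02, SE 0.283, adjusted p = 0.981, edgeR).

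KIT, the receptor, was at the edge of detection. It had 6, 8, 0 and 13 reads in poGC-KD and 0, 2, 5 and 7 in poGC-CT, and at most 3 reads in any phGC library. KD and CT overlapped in both cell types (two-sided exact permutation of CPM, p = 0.343 in poGC and p = 1 in phGC, n = 4). In bulk RNA, fewer cells of a type and less RNA per cell cannot be told apart, which holds for all of these low genes.

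KITLG, the KIT ligand, rose after knockdown in poGC only among the cell types tested, and this difference was itself tested. It had 519, 532, 550 and 531 reads in poGC-KD against 199, 295, 313 and 330 in poGC-CT, so that each KD library stood above each CT library. The level was 10.8 ± 0.845 against 6.20 ± 0.477 CPM (SD, n = 4), a log2 fold change of 0.82 (SE 0.0895, adjusted p = 0.000241, edgeR) or 1.77-fold. In phGC it had 714, 376, 478 and 410 reads in KD and 564, 470, 352 and 491 in CT, with overlap and a log2 fold change of -0.13 (SE 0.149, adjusted p = 0.605, edgeR). The change in poGC exceeded that in phGC by 0.93 on the log2 scale (SE 0.178, adjusted p = 0.00367, edgeR), a difference called for 9.25% of all genes (4.47% higher in poGC and 4.78% lower). Of DCT, MITF and KITLG, which could be tested in poGC, 1 of 3 was called, where 28.8% of all 14379 genes tested were called in either direction, 15.2% higher and 13.6% lower. In phGC none of MITF and KITLG was called by edgeR, where 9.97% of 13829 genes were (5.06% higher and 4.91% lower), and neither had an unadjusted p under 0.05 or was called by DESeq2.

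**Figure D3:**
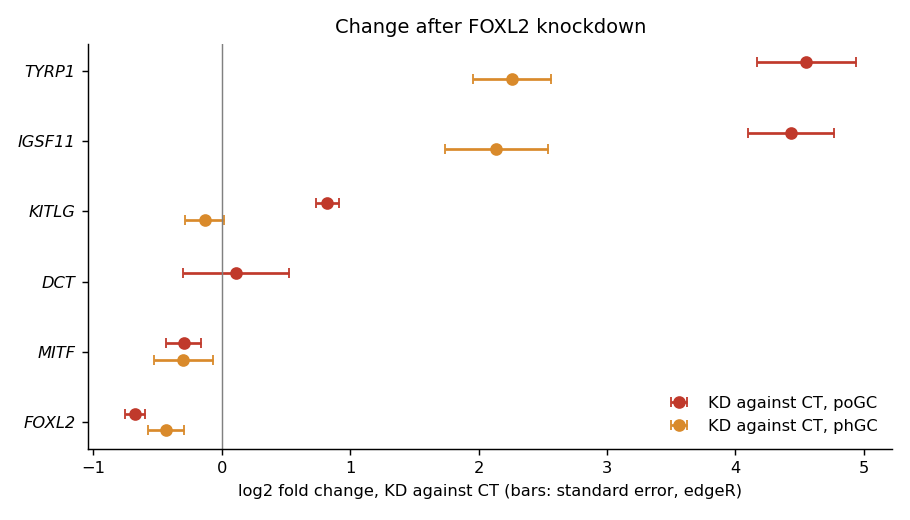
Log2 fold change of KD against CT (horizontal axis) for the members that entered the model and for FOXL2, in poGC and phGC. Points are edgeR estimates, and bars are standard errors derived from the edgeR F statistic. TYRP1 and IGSF11 lie at 4.55 and 4.44 in poGC and 2.26 and 2.14 in phGC, KITLG at 0.82 and -0.13, and MITF at -0.30 in both; DCT entered the model in poGC only.

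Without knockdown, MITF and KITLG differed by follicle stage. MITF was 3.01-fold higher in poGC-CT than in phGC-CT (43.1 against 14.2 CPM, log2 fold change 1.59, SE 0.247, adjusted p = 0.00048, edgeR), without overlap. KITLG was lower in poGC-CT (6.20 against 14.6 CPM, log2 fold change -1.25, SE 0.147, adjusted p = 9.02e-05, edgeR), also without overlap. Both were called, as were 64% of the 14089 genes tested between the stages (32.5% higher in poGC-CT and 31.5% lower), and the libraries of the stages did not overlap for 60.5% (31.2% and 29.3%). The order of KITLG levels was poGC-CT, poGC-KD, phGC-KD, phGC-CT, at 6.20, 10.8, 13.4 and 14.6 CPM, and phGC-CT overlapped with both phGC-KD and poGC-KD. DCT had 82 reads over the poGC-CT libraries and 3 over phGC-CT (exact permutation p = 0.0286, the smallest possible, and 0.229 adjusted over the 8 tests). TYRP1 and IGSF11 overlapped between the controls, with log2 differences of -0.20 (SE 0.488) and -0.30 (SE 0.526).

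Of 14 other genes listed for the melanocyte, 9 could be tested in poGC. Some of the 9 were well expressed in these granulosa cultures: TPCN2, RAB27A and RAB32 had 155, 33.9 and 15.6 CPM in poGC-CT. The calls and the median of the list therefore do not stand for genes confined to melanocytes. None of the 9 rose past the threshold, a count too small to set apart from the 15.2% of all genes that rose. The 1 call (11.1%, beside 28.8% of all genes) was TPCN2, a channel of endolysosomes and melanosomes, at -0.23 (SE 0.0435, adjusted p = 0.00422, edgeR). Of the 9, 3 had an unadjusted p under 0.05 (edgeR) and DESeq2 called 1. PMEL, the fibril protein of the melanosome, had log2 fold changes of -0.15 (SE 0.109) in poGC and -0.18 (SE 0.148) in phGC and was called in neither. TRPM1, a channel of melanocytes and retina, had 0.51 (SE 0.21, adjusted p = 0.109, edgeR) in poGC and -0.63 (SE 0.358, adjusted p = 0.301, edgeR) in phGC. In phGC 0 of 8 were called by edgeR, a count too small to set apart from the 9.97% of all genes. Of the 8, 1 had an unadjusted p under 0.05 and DESeq2 called 0. The median log2 fold change of the list was -0.07 in poGC and 0.05 in phGC, where that of all genes was 0.01 and -0.01.

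Among the 9 markers of the melanocyte, MLANA had no read in poGC, TYR was as low as given above, and OCA2, SLC45A2, SLC24A5 and SOX10 had at most 13 reads in any library. PMEL and TRPM1 were not near 0: PMEL had 3.16 and 3.56 CPM in poGC-KD and poGC-CT and 11.8 and 13.3 CPM in phGC-KD and phGC-CT, and TRPM1 had 4.45, 3.17, 0.541 and 0.83 CPM in the same order. All 9 summed to between 7.42 and 8.87 CPM in poGC-KD and between 6.54 and 8.05 in poGC-CT, and to between 11.1 and 14.9 in phGC-KD and between 12.2 and 17.4 in phGC-CT, so KD and CT overlapped. Summed markers of some other cells differed between KD and CT without overlap. Single genes did so for 31.6% of all genes in poGC and 18.4% in phGC. The 6 smooth muscle markers summed to 301.3 to 478.8 CPM in poGC-KD against 833.7 to 1009 in poGC-CT, and to 360.1 to 422.5 in phGC-KD against 753.1 to 841.6 in phGC-CT. Of these 6, 1 rose and 4 fell in poGC, and 0 rose and 3 fell in phGC (edgeR). Of all genes tested, 15.2% rose and 13.6% fell in poGC, and 5.06% rose and 4.91% fell in phGC. These shares apply to each count of called markers given here, and most of the counts are too small to set apart from them. The Schwann cell markers, a lineage close to the melanocyte, summed to 3.27 to 3.67 CPM in poGC-KD against 5.40 to 5.95 in poGC-CT, and to 13 to 15.6 in phGC-KD against 27.8 to 31.4 in phGC-CT. Of 5 Schwann cell markers present, 2 could be tested in poGC and 3 in phGC. In each cell type 0 of them rose and 1 fell (edgeR). The theca and stroma markers summed to 731.6 to 791 CPM in poGC-KD against 1161 to 1257 in poGC-CT and overlapped in phGC. Of 6 theca and stroma markers tested in poGC, 1 rose and 4 fell (edgeR). Leukocyte markers summed to 93.6 to 105.3 CPM in poGC-KD against 125 to 136.2 in poGC-CT, and to 58.5 to 72.6 in phGC-KD against 75.3 to 91.6 in phGC-CT. Of 4 leukocyte markers tested, 0 rose and 1 fell in each cell type (edgeR). Oocyte markers were lower in poGC-KD (2.27 to 3.23 against 4.06 to 4.81 CPM) and endothelial markers in phGC-KD (23.7 to 31.7 against 35.6 to 51.4 CPM). Of these, 1 of 3 oocyte markers tested in poGC and 1 of 5 endothelial markers tested in phGC fell, and 0 rose (edgeR). Several of these sums thus rest on few genes. The 12 granulosa markers themselves summed to 28802 to 35120 CPM in poGC-KD against 38636 to 42719 in poGC-CT, where 2 rose and 6 fell (edgeR), and overlapped in phGC. FOXL2, the target of the siRNA, is among the 12 and among the 6 that fell. Whether these marker changes have a part in the changes of the pigment-cell genes was not tested.

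Among genes of melanosome biogenesis, which serve lysosome-related organelles in most cells, 2 rose and 5 fell of 23 tested in poGC, which is 30.4%, near the 28.8% of all genes. DTNBP1, a subunit of the BLOC-1 complex, rose by 0.39 (SE 0.0418, adjusted p = 0.000225, edgeR), and HPS1 rose by 0.30. AP3S1, ATRN, AP3S2, LYST and MGRN1 fell by 0.17 to 0.28. Of these, AP3S2, LYST and MGRN1 lost the call in one fit of all 16 libraries. AP3S2 also lost it without poGC-KD 2, poGC-KD 4 or poGC-CT 4, LYST without any single library other than poGC-KD 4 and poGC-CT 2, and MGRN1 without poGC-KD 2, poGC-KD 4, poGC-CT 2, poGC-CT 3 or poGC-CT 4. The count fell from 7 to 4 without poGC-KD 2 or poGC-CT 4. In phGC 1 rose and 2 fell (13% of those tested, beside 9.97% of all genes), with log2 fold changes of 0.38 for DTNBP1, -0.37 for HPS4 and -0.21 for AP3M1. HPS4 lost its call without any 1 of the 8 libraries, AP3M1 without any single library other than phGC-CT 1 and phGC-CT 3, and DTNBP1 without phGC-KD 1, phGC-KD 3, phGC-CT 2 or phGC-CT 4 (adjusted p = 0.055 to 0.0586 for DTNBP1).

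Of the regulators of pigment cell specification, 13 were tested in poGC and 4 called, which is 30.8%, near the 28.8% of all genes. BNC2, a zinc finger protein known for pigment patterning in zebrafish, rose from 2.13 ± 0.358 to 7.24 ± 0.97 CPM (SD, n = 4), a log2 fold change of 1.79 (SE 0.16, adjusted p = 7.95e-05, edgeR). EDNRB, an endothelin receptor, fell from 30 ± 1.79 to 11.7 ± 1.13 CPM, a log2 fold change of -1.34 (SE 0.0815, adjusted p = 1.17e-05, edgeR). EDNRB2, another endothelin receptor, had at most 4 reads in any poGC-KD library and 8 in any poGC-CT library. SNAI2, a factor of neural crest cells, fell by 0.57, and ASIP, the agouti signalling protein, by 0.50 (adjusted p = 0.0204, edgeR), which lost the call without poGC-KD 3 (adjusted p = 0.0534, edgeR) or poGC-CT 4 (adjusted p = 0.053, edgeR). ASIP also lost it with the replicate block (adjusted p = 0.0516, edgeR) and on log2 FPKM + 0.1 or + 1 (0.0669 and 0.0632, limma). In phGC BNC2 alone was called of 14 (7.14%, beside 9.97% of all genes), at 1.71 (SE 0.348, adjusted p = 0.0176, edgeR), and it was not called without phGC-KD 1 (adjusted p = 0.0575), phGC-CT 2 (0.0565) or phGC-CT 4 (0.063, all edgeR). On log2 FPKM + 0.1 or + 1, BNC2 in phGC was not called either (adjusted p = 0.167 and 0.285, limma). It had only 8 to 12 reads in the phGC-CT libraries and 21 to 60 in phGC-KD, so its value in phGC lies near the floor. The fall of EDNRB was larger in poGC than in phGC by 1.07 (SE 0.123, adjusted p = 7.91e-05, edgeR).

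Downstream of KIT, 8 genes rose and 14 fell of 54 tested in poGC, which is 40.7%, beside 28.8% of all genes. MMP9, a matrix metalloproteinase that releases the KIT ligand from the membrane in mouse marrow, fell by 1.14 (SE 0.0608, adjusted p = 6.64e-06, edgeR). LYN and TEC, kinases that act with KIT, fell by 0.90 and 0.65, SOCS1, an inhibitor of cytokine signals, by 0.63, and PIK3R3, a PI3-kinase subunit, by 0.56. TEC lost its call with the replicate block (adjusted p = 0.0505, edgeR). PIK3R3 lost its call on log2 FPKM + 0.1 or + 1 (adjusted p = 0.0546 and 0.0617, limma). GAB2, an adaptor, rose by 0.52 (SE 0.0914, adjusted p = 0.00309, edgeR). The median of the list was 0.02 in poGC. In one fit of all 16 libraries 13 of the genes were called, not 22, and with a library left out 15 to 20 were. All genes called numbered 3293 to 3897 with a library left out and 3146 to 4564 over all 16 alternatives, not 4138. The 40.7% thus holds for the main fit only, and whether the list exceeds all genes was not tested.

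In phGC 1 gene of KIT signalling rose and 1 fell of 54, which is 3.7%, beside 9.97% of all genes. They were ADAM17, a sheddase, at 0.34 (SE 0.0642, adjusted p = 0.013, edgeR), and MMP9 at -0.57 (SE 0.148, adjusted p = 0.0427, edgeR). MMP9 lost its call without any single library other than phGC-KD 2 and phGC-CT 1 (highest adjusted p = 0.11, edgeR), and ADAM17 without phGC-CT 4 (0.052, edgeR). The count was 10 without phGC-CT 1, 0 without phGC-CT 4, and 1 without phGC-KD 3, phGC-KD 4, phGC-CT 2 or phGC-CT 3. All genes called in phGC numbered 662 to 1949 with a library left out, not 1379. The difference in change between the cell types was called for 9.26% of the list, as for 9.25% of all genes. The change of LYN, TEC, MMP9 and AKT1 was lower in poGC than in phGC, with a log2 difference of -1.02 for LYN (SE 0.183, adjusted p = 0.00237, edgeR) and -0.88 for TEC (SE 0.212, adjusted p = 0.0165, edgeR). MMP9 lost this call without any single library other than phGC-KD 1 and phGC-CT 3 (adjusted p up to 0.0909, edgeR), and AKT1 without any other than poGC-KD 4, poGC-CT 2 and phGC-CT 1 (up to 0.0944, edgeR).

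**Figure D4:**
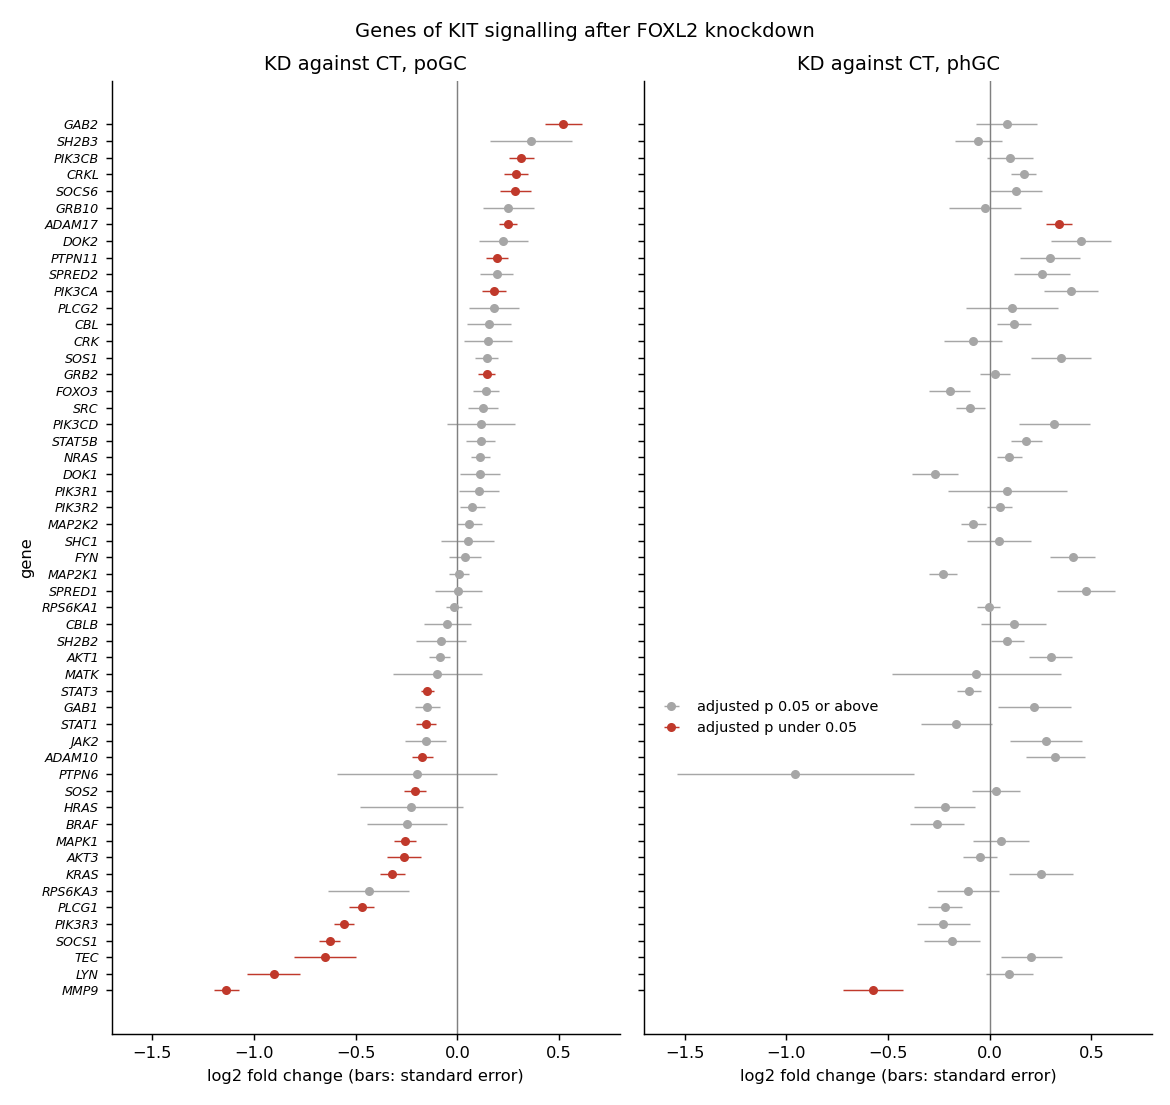
Log2 fold change of KD against CT (horizontal axes, the same scale in both panels) for 53 of the 54 genes of KIT signalling tested in poGC and in phGC, ordered by the change in poGC; bars are standard errors and red marks an adjusted p under 0.05. MMP9 and LYN lie lowest in poGC, at -1.14 and -0.90, GAB2 highest at 0.52, and in phGC only ADAM17 and MMP9 are red.

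Among the receptor tyrosine kinases of the KIT class and their ligands, 0 rose and 4 fell of 9 tested in poGC, where 13.6% of all genes fell. These were ligands: PDGFC by 0.88, IL34 by 0.67, PDGFA by 0.59 and CSF1 by 0.29. In phGC FLT3 (-0.72) and IL34 (-0.69) were called of 9, beside 9.97% of all genes, and IL34 lost the call without phGC-KD 1, phGC-KD 3 or phGC-CT 4 and FLT3 without any single library other than phGC-KD 3 and phGC-CT 1. On log2 FPKM + 0.1 or + 1, FLT3 in phGC was -0.33 and -0.15 and was not called (adjusted p = 0.618 and 0.61, limma). KITLG rose in poGC, where these 4 related ligands fell. Of the immunoglobulin-superfamily relatives of IGSF11, CLMP (0.72) and JAM3 (0.35) rose and VSIG1 (-1.72) and JAM2 (-0.47) fell of 9 tested in poGC, beside 28.8% of all genes called. The size of the VSIG1 change depended on the processing, from -2.05 to -0.113 over 15 alternatives, though its call was kept. In phGC 0 of 7 relatives were called by edgeR, beside 9.97% of all genes, 1 had an unadjusted p under 0.05 and DESeq2 called 1.

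The genes beside the members were read in the order of the GRCg7b annotation, 3 on each side. Of 5 neighbours of TYRP1 tested in poGC, 1 was called, where 28.8% of all genes were. This was LURAP1L, which rose by 1.82 (SE 0.143, adjusted p = 3.87e-05, edgeR), while KDM4C, PTPRD, MPDZ and LOC107052258 were not called. In phGC LURAP1L had 0.60 (SE 0.894, adjusted p = 0.707, edgeR). The call in poGC was lost in one fit of all 16 libraries (adjusted p = 0.095, edgeR). Of the neighbours of IGSF11, LSAMP had 0.07 (SE 0.533) in poGC and was not called, and UPK1B and C3ORF30 had no read in poGC. Beside KITLG, 3 of 5 tested neighbours were called in poGC, where 28.8% of all genes were. TMTC3 rose by 0.36 and POC1B by 0.31 in poGC, and DUSP6, a phosphatase of the MAP kinase ERK, fell by 0.46 (SE 0.0846, adjusted p = 0.00375, edgeR). TMTC3 lost its call on log2 FPKM + 0.1 or + 1 (adjusted p = 0.178 and 0.188, limma). In phGC 1 of 5 tested neighbours of KITLG was called, where 9.97% of all genes were. This was CEP290, at -1.13 (SE 0.271, adjusted p = 0.0327, edgeR), and it lost the call without any single library other than phGC-KD 3 and phGC-CT 2.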

How the data were processed

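RNA-Seq of 16 libraries was used, 4 per group. The authors mapped reads with TopHat 2 to Gallus_gallus-5.0, and the submitters' processing notes name HISAT2 2.1.0, StringTie 1.3.4d and DESeq2 1.26.0. The authors deposited a raw count and an FPKM per gene and library. The counting program, its strand setting and whether mates of a pair were counted apart are not given in the sources used here. In the order listed, every library total exceeds the clean read pairs that the paper gives for it. Fragments were thus in part counted more than once, and 2 reads of a low gene may be a single fragment. Of the 18151 rows, 89 symbols stand on several rows, but each member has 1 row.

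Counts were tested by edgeR 4.0.16 (quasi-likelihood, TMM, filterByExpr, Benjamini-Hochberg over all genes, called at an adjusted p under 0.05) in R 4.3.3, KD against CT within a cell type, between CT groups, and as an interaction over all 16 libraries. CPM used TMM over all libraries. The SE of a log2 fold change was its absolute value over the square root of the F statistic of edgeR's test. This holds for TYRP1 and IGSF11 too, where the SE is not to be read as a test. Members under the filter were tested by exact permutation of 70 splits. Alternatives were DESeq2 1.42.0, upper-quartile scaling, 2 filters, a replicate block, one fit of 16 libraries, limma 3.58.1 on log2 FPKM + 0.1 or + 1, and each library left out. The members and lists were chosen with earlier results of these data known. Named genes were the members, called list genes (at most 6 a list) and the 5 most alike in pattern; neighbours of members and a seventh gene of a list were chosen after their values were seen. In KIT signalling, 1 gene that the counts include is not reported here by name. Steps were tested on simulated data.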

Additional observations from a re-analysis of the deposited data

Results flagged for a closer look

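KITLG changed differently in the cell types: the log2 change in poGC exceeded that in phGC by 0.93 (adjusted p = 0.00367 from edgeR's interaction term), with each poGC-KD library above each poGC-CT library.

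In 4 of 28 groups of libraries examined for the members, a single library stood apart from the other three, each of which had no read. These were TYR in poGC-KD 4 (0.0432 CPM), DCT in phGC-CT 1 (0.0959 CPM), KIT in phGC-KD 3 (0.0844 CPM) and KIT in phGC-CT 2 (0.0906 CPM). Each rests on 2 or 3 reads, and where the other libraries have no read, any read at all gives such a value. The usual rate for this rule, about 1 of 20 groups by chance, therefore does not hold for genes this low.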

How the results depend on the processing

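KITLG kept its call and direction in poGC (0.72 to 0.86 over 16 alternatives) and in the difference between cell types (0.82 to 1.05 over 20), and MITF stayed without a call in poGC and phGC under all 16 alternatives of each. On log2 FPKM + 0.1, TYRP1 in phGC was 1.71 and IGSF11 in poGC 3.20, and on log2 FPKM + 1 TYRP1 was 1.74 in poGC and 0.54 in phGC and IGSF11 1.13 and 0.34, since a pseudocount shrinks low values. Genes called in phGC numbered 1379, but 2226 with DESeq2, 2575 in one fit of all 16 libraries, and 662 to 1949 with a library left out, fewest without phGC-CT 4. KIT signalling genes called in poGC numbered 22, but 23 with DESeq2, 15 with the replicate block, 13 in one fit of all 16 libraries and 14 on either FPKM scale. With a library left out they numbered 15 to 20, where all genes called in poGC numbered 3293 to 3897, not 4138. Over all 16 alternatives, all genes called in poGC numbered 3146 to 4564. In phGC the called KIT signalling genes numbered 2, but 7 with DESeq2, 1 with all genes of at least 1 count, 1 with the replicate block, 10 in one fit, and 0 to 10 with a library left out. For the difference between cell types they numbered 5 (9.26% of the list, beside 9.25% of all genes), but 8 with DESeq2, 3 with all genes of at least 1 count, 3 with the replicate block, and 2 to 10 with a library left out. All genes called for that difference numbered 1061 to 1857 with a library left out, not 1367. With a library left out, DCT in poGC ran from -0.088 to 0.63, MITF in the difference between cell types from -0.29 to 0.13, the KIT difference in phGC from -0.0227 to 0.0211 CPM, and those between CT groups from -0.162 to -0.0797 CPM for TYR and from 0.292 to 0.493 CPM for DCT. The difference of DCT between cell types ran from -5.24 to -1.56, but DCT entered that fit only through poGC, and -5.24 is a fold over phGC-CT libraries with no read once phGC-CT 1 is left out, so nothing is read from it. LURAP1L in phGC was -0.23 on log2 FPKM + 0.1. The cause of these shifts was not tested.

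The replicate numbers were compared after each group's mean log2 CPM was subtracted. KD and CT libraries of the same number then correlated at -0.034 on average in poGC and -0.0127 in phGC. Those of other numbers averaged 0.0113 and 0.00416. In phGC the same-numbered pairs ran from -0.0903 to 0.122. Of 8 libraries, 0 in poGC and 2 in phGC were closest to their own number, so no pairing by number was seen. With the replicate block, 3146 genes were called in poGC and 1066 in phGC, and KITLG had 0.82 in poGC. With that block, AP3S2, LYST, MGRN1, ASIP and TEC lost their call in poGC. In phGC HPS4, AP3M1, DTNBP1, MMP9, IL34, FLT3, CEP290 and CMBL lost theirs. TEC and MMP9 lost it for the difference between cell types. On log2 FPKM + 0.1 or + 1, AP3S2 and MGRN1 in poGC and HPS4, AP3M1 and MMP9 in phGC were not called. The reads of TYR and KIT limit what can be seen of them.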
